A study of Mus musculus with 4 samples.

Results

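The genes described here are 10 components of the pathway around mTOR complex 1 (mTORC1), the growth-controlling kinase complex of the cell. They comprise 6 brakes that act upstream of the complex (Tsc1, Tsc2, Ddit4, Sesn1, Sesn2 and Sesn3), its activator Rheb, and 3 genes that encode its direct substrates (Rps6kb1, Eif4ebp1 and Eif4ebp2). They were taken as a list of symbols that was chosen with earlier results of these data known. All 10 were found among 12021 genes in the table and among the 11312 genes tested.

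Tsc1 and Tsc2 encode the proteins of the tuberous sclerosis complex, which switches off the small GTPase Rheb, and GTP-bound Rheb switches on mTORC1 at the lysosome. Ddit4 (REDD1) works through that complex, and the sestrins hold back the arm that senses amino acids. Active mTORC1 phosphorylates the kinase S6K1 (Rps6kb1) and the 4E-BP proteins, which otherwise bind the cap-binding factor eIF4E and restrain translation. In T lymphocytes antigen receptor signals are known to activate mTORC1, largely by phosphorylation, which RNA counts do not measure.

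The cells were natural killer T (NKT) cells, T cells whose semi-invariant receptor sees lipids on CD1d. Tetramer libraries came from cells stimulated on plates coated with mCD1d-PBS57 tetramers, a lipid-loaded ligand of that receptor, and resting libraries from purified cells left unstimulated, with 2 libraries in each group. Both groups came from C57BL/6 mice of the genotype Va14 Tg.cxcr6gfp/+, aged 10 to 12 weeks, so all cells carried a receptor transgene and GFP at 1 Cxcr6 allele, and they were sorted as GFPhi, that is, by a reporter of Cxcr6. Liver is the labelled tissue, but the protocols mention spleens as another source of sorted cells and name islets at RNA extraction. How long the cells were cultured is not stated. The comparison asks which transcripts stimulation changed, and the study's title concerns hexokinase-II and mTORC2, the sister complex of mTORC1.

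Libraries held between 4168438 and 5495521 counts. All 10 of 10 NKT and T cell markers were listed, summing to 2761 and 3609 CPM (counts scaled to a common library total) in tetramer libraries 4 and 5 and to 4410 and 3921 CPM in resting libraries 4 and 5. Of these 10 markers 0 were called higher and 2 lower, Klrb1c and Cxcr6, the gene of the sort reporter. Their log2 fold changes were -4.13 and -1.26. Defining genes of hepatocytes (Alb, Apoa1) and macrophages (Lyz2, C1qa) had no row. The table holds no count below 1, so a missing row does not show that a gene was absent from every library. The listed markers of B cells (5 of 7), macrophages (4 of 8), hepatocytes (4 of 8), endothelium (1 of 6), CD8 T and NK cells (3 of 6) and granulocytes (2 of 6) each summed to less in both tetramer libraries, at 1.64 to 45.1 CPM, than in either resting library, at 18.9 to 86.8 CPM. The sum of 8 of 8 dissociation and heat stress genes was higher, at 2395 and 2090.0 CPM in tetramer libraries 4 and 5 and 768 and 695 CPM in resting libraries 4 and 5. Hspa8 alone gave 1924 and 1511 CPM of that sum in tetramer libraries 4 and 5, against 505 and 396 CPM in resting libraries 4 and 5. Of the 8 genes 4 rose (Hspa8, Jun, Atf3 and Ier2) and 1 fell, Hspa1a, with a log2 fold change of -1.98, while Hspa1b, Fos and Dnajb1 were not called, at -1.94, 0.04 and 0.89. The part of these genes in the results was not tested. All 5 of 5 hormone genes of pancreatic islets (Ins1, Ins2, Gcg, Sst and Iapp) were listed, with summed levels of 208 and 389 CPM in tetramer libraries 4 and 5, and 305 and 1026 CPM in resting libraries 4 and 5. Resting library 5 was thus the highest in islet transcripts, whose part in the results was not tested.

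Of the 10 genes, 0 rose and 2 fell after stimulation at an adjusted p below 0.05 (edgeR, quasi-likelihood), namely the sestrin gene Sesn1 and the 4E-BP gene Eif4ebp2. Among all genes tested 26.4% were called, 14.3% higher and 12.1% lower, so 2 of 10 is a share near the background. At an unadjusted p below 0.05 the counts were 1 higher (Sesn3) and 2 lower. Here and below, the share of all genes at that unadjusted threshold was not counted. DESeq2 called 0 higher and 1 lower, and limma-voom called 0 higher and 2 lower. The median log2 fold change of the 10 genes was -0.61, beside -0.06 over all genes tested. It was -0.15 without resting library 5, -0.31 without resting library 4, -0.36 without tetramer library 4 and -0.73 without tetramer library 5. In bulk RNA a smaller share of expressing cells and less RNA per cell cannot be told apart.

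The 2 tetramer libraries lay wholly below the 2 resting libraries for 3 genes (Tsc2, Sesn1 and Eif4ebp2), wholly above them for 1 (Sesn3), and overlapped them for 6. Over all genes tested the groups did not overlap in 65.2%, below in 33.7% and above in 31.6%.

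**Figure D1:**
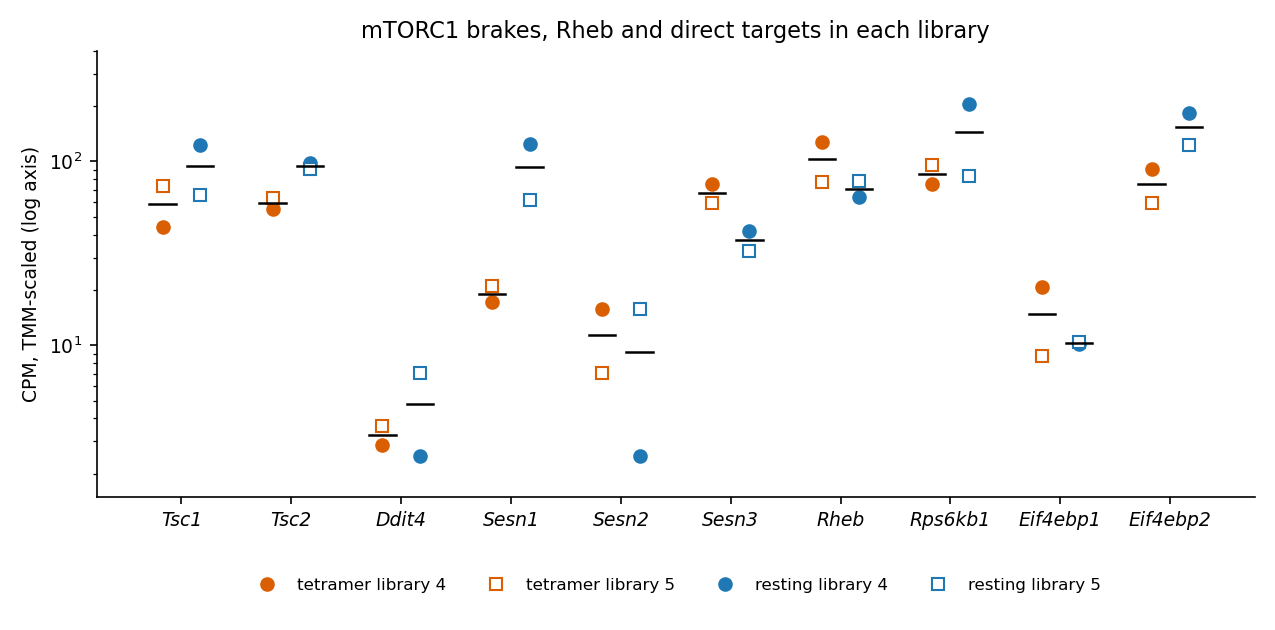
TMM-scaled CPM of each gene in each library on a log axis, with tetramer libraries in orange, resting libraries in blue, library 4 as filled circles, library 5 as open squares and group means as bars. Sesn1 stands at 17.2 and 21.0 CPM in tetramer libraries against 124 and 61.8 CPM in resting libraries, while 6 of the 10 genes overlap between the groups. Values are not per length, so heights compare libraries within a gene and not genes with each other.

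Sestrins are stress-induced proteins that restrain mTORC1, and of the 3 sestrin genes 1, Sesn1, passed the test. Sesn1 measured 17.2 and 21.0 CPM (scaled by TMM, as are all CPM of single genes) in tetramer libraries 4 and 5, against 124 and 61.8 CPM in resting libraries 4 and 5. Both tetramer libraries were low, and the groups did not overlap although the resting pair differed by itself. The mean was 19.1 ± 2.72 CPM in tetramer libraries and 92.9 ± 44.1 CPM in resting libraries (SD, n = 2 each), a log2 fold change of -2.28 ± 0.43 (SE, edgeR adjusted p = 0.000385). By size of change Sesn1 ranked 794th of the 11312 genes. It was called lower in each of 12 alternative analyses, with log2 fold changes from -2.67 to -1.68 and a highest adjusted p of 0.0110.

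Sesn3 went the other way in value. It measured 75.1 and 59.5 CPM in tetramer libraries 4 and 5, against 41.8 and 32.5 CPM in resting libraries 4 and 5, and the groups did not overlap. Its log2 fold change of 0.86 (95% interval 0.03 to 1.68) did not pass the threshold (edgeR adjusted p = 0.114), and no alternative brought it past. Leaving out single libraries kept the log2 fold change between 0.70 and 1.07.

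Sesn2 had 77 and 35 counts in tetramer libraries 4 and 5, against 12 and 74 counts in resting libraries 4 and 5. The high value of each group lay beside a low one, so the groups overlapped fully. Its log2 fold change was 0.32 (95% interval -1.02 to 1.66, edgeR adjusted p = 0.754), and it turned with the library left out. The value was 2.21 without resting library 5 (edgeR adjusted p = 0.0204), -0.45 without resting library 4 and -0.35 without tetramer library 4 (edgeR adjusted p = 0.592 and 0.867). Resting library 5 and tetramer library 4 were the high ones for Sesn2, at 15.8 CPM each. In islet transcripts the first was the highest library (1026 CPM) and the second the lowest (208 CPM). The part of islet transcripts in this was not tested.

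Summed over the 3 genes, sestrin transcripts came to 108 and 87.6 CPM in tetramer libraries 4 and 5, against 168 and 110.1 CPM in resting libraries 4 and 5. Sesn1 took 15.9% (exact Clopper-Pearson 95% interval 12.9 to 19.3) and 24.0% (20.1 to 28.3) of sestrin reads in tetramer libraries 4 and 5, against 73.7% (70.5 to 76.7) and 56.1% (51.7 to 60.5) in resting libraries 4 and 5. Sesn3 took 69.5% (65.4 to 73.4) and 67.9% (63.3 to 72.3) in tetramer libraries, against 24.8% (21.9 to 28.0) and 29.5% (25.6 to 33.7) in resting libraries. These intervals cover counting error only, and shares are of reads, not per transcript length. The leading gene by reads was therefore Sesn3 in both tetramer libraries and Sesn1 in both resting libraries.

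**Figure D2:**
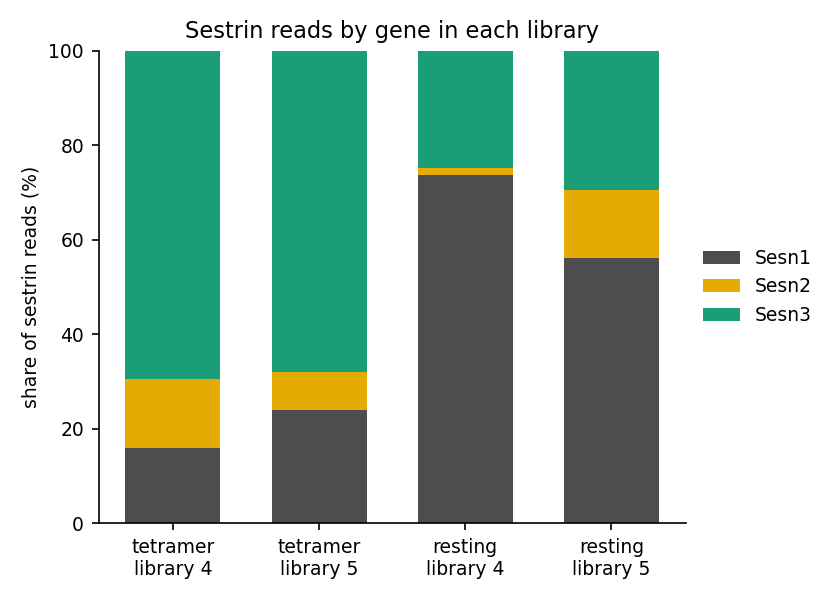
Share of the reads of Sesn1, Sesn2 and Sesn3 (percent, stacked to the whole) in each library, from 528 and 433 sestrin reads in tetramer libraries 4 and 5 and 813 and 515 in resting libraries 4 and 5. Sesn3 holds 69.5% and 67.9% in tetramer libraries, and Sesn1 holds 73.7% and 56.1% in resting libraries.

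A ratio of 2 genes within a library does not depend on how libraries are scaled to each other. The ratio of Sesn3 to Sesn1 reads was 4.37 and 2.83 in tetramer libraries 4 and 5, against 0.337 and 0.526 in resting libraries 4 and 5. The difference of the mean log2 ratio was 3.06, and 2.74 to 3.38 when single libraries were left out. An exact two-sided permutation test gave p = 0.333, the smallest this test can give with 2 libraries against 2, so it cannot reach 0.05. Of 5 ratios compared in all, 4 stood at that smallest p (Benjamini-Hochberg adjusted p = 0.417 by the exact permutation test), among them Sesn2 to Sesn1, with a log2 difference of 2.96, and Ddit4 to Sesn1, with 1.83. These share Sesn1 as the denominator and moved most with the resting library left out. Sesn2 to Sesn1 differed by 1.12 without resting library 4 and by 4.79 without resting library 5, and Ddit4 to Sesn1 by 0.57 and 3.08 without the same libraries.

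The promoters of the sestrins with opposite values are printed because Sesn1 and Sesn3 are both known targets of FOXO factors, which receptor signals through Akt keep out of the nucleus. Each sequence is the 300-base RefSeq window (build GRCm38.p6), 250 bases before to 50 after an annotated start, 5′ to 3′ on the gene's strand. Capitals mark the motif TGTTTAC, a core FOXO motif, searched on both strands. Sesn1 has 2 annotated starts, at chr10:41810324-41810623 and chr10:41887189-41887488 (plus strand), and Sesn3 lies at chr9:14276051-14276350 (plus strand).
Sesn1, first start: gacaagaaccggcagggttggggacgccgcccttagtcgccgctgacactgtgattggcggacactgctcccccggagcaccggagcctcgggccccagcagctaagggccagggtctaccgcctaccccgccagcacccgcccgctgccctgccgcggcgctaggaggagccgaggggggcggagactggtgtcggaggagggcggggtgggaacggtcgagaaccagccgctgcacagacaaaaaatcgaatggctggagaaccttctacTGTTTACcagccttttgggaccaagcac
Sesn1, second start: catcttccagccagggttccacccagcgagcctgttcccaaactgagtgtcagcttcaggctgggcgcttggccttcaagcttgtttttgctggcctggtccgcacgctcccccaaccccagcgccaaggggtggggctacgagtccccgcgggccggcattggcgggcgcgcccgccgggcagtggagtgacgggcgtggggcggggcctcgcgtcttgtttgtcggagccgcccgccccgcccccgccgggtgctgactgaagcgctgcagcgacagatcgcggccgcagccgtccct
Sesn3: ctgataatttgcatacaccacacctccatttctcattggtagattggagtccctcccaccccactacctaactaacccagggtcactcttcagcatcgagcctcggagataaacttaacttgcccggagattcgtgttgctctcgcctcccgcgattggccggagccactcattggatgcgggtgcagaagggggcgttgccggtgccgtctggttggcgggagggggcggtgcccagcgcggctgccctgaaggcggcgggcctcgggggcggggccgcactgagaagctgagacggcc

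A match stood in the first Sesn1 window alone, with its first base at position 23 after the start, and 3.65% of all 32851 promoter windows held the motif. Windows were found for 9 of the 10 genes, all but Eif4ebp1, which was not searched. With 2 windows of Sesn1 there were 10 windows in all, and the other 9 windows held no TGTTTAC. None of the 10 windows held TGATGNAA (an ATF4 element, in 3.97% of all windows) or TGANTCA (an AP-1 element, in 7.81%). A match describes letters only, and the table was counted on another build, mm9.

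Ddit4, a brake induced by hypoxia, glucocorticoids and energy stress, was the least abundant of the 10 by counts. It had 14 and 18 counts in tetramer libraries 4 and 5, against 12 and 33 counts in resting libraries 4 and 5. Resting library 5 stood above the other libraries, which lay close together. The log2 fold change of -0.55 (95% interval -1.94 to 0.84, edgeR adjusted p = 0.582) became 0.41 without resting library 5 (edgeR adjusted p = 0.728).

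Tsc1 and Tsc2 had nearly the same log2 fold change, and neither passed the test. Tsc2, the GTPase-activating subunit, measured 55.5 and 63.5 CPM in tetramer libraries 4 and 5, against 98.2 and 90.8 CPM in resting libraries 4 and 5. Replicates were tight and the groups did not overlap, yet the log2 fold change of -0.67 (95% interval -1.43 to 0.10) did not pass the threshold (edgeR adjusted p = 0.188). Tsc1, the stabilising subunit, measured 43.8 and 73.4 CPM in tetramer libraries 4 and 5, against 122.9 and 66.0 CPM in resting libraries 4 and 5. Here tetramer library 5 lay above resting library 5, and the log2 fold change was -0.69 (95% interval -1.52 to 0.14, edgeR adjusted p = 0.210).

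The ratio of Tsc2 to Tsc1 reads was 1.27 and 0.865 in tetramer libraries 4 and 5, against 0.799 and 1.38 in resting libraries 4 and 5. Its mean log2 difference was -0.00, with the values crossing (exact permutation p = 1). Tsc2 overlaps the gene Pkd1 in the annotation used here, and the sources do not state how reads shared by overlapping genes were counted.

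**Figure D3:**
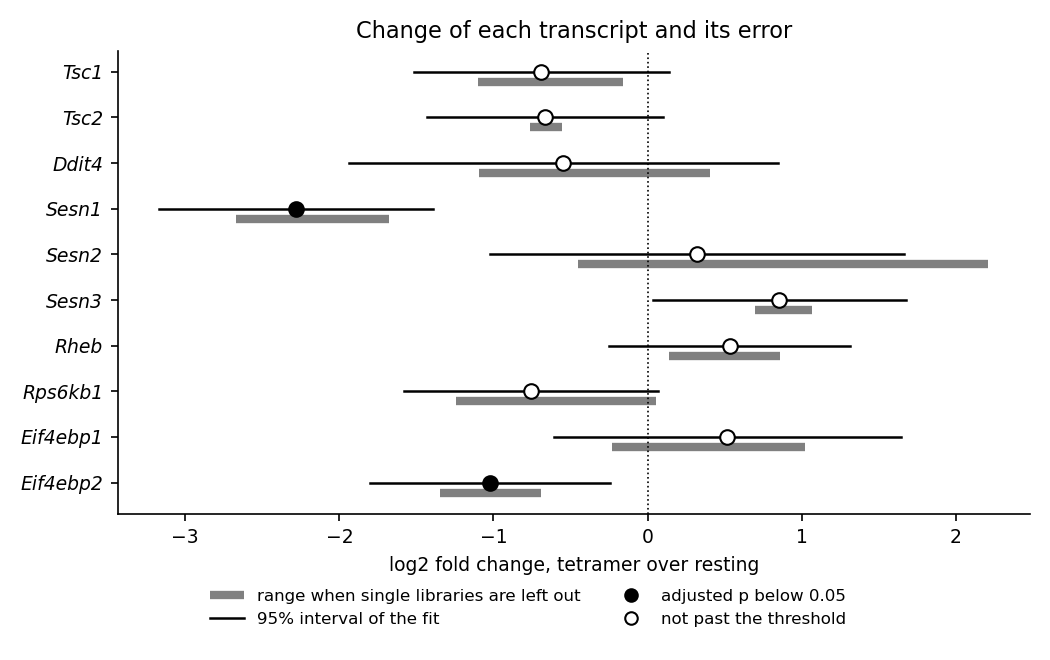
Change of each of the 10 genes (log2 fold change, tetramer over resting), with the 95% interval of the edgeR fit as a black line and the range when single libraries are left out as a grey bar below it. Filled circles mark Sesn1 and Eif4ebp2, which passed the threshold. The grey bars of Sesn2, Ddit4, Rps6kb1 and Eif4ebp1 cross 0.

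Rheb, the GTPase that the TSC proteins inhibit and that activates mTORC1, measured 128 and 77.3 CPM in tetramer libraries 4 and 5, against 63.8 and 78.2 CPM in resting libraries 4 and 5. Tetramer library 4 was high, and tetramer library 5 lay between the resting libraries. The log2 fold change was 0.53 (95% interval -0.25 to 1.32, edgeR adjusted p = 0.312), and 0.14 to 0.86 when single libraries were left out. The promoter of Rheb is printed because it held the only CACGTG, the E-box bound by Myc and TFE factors, among the 10 windows (capitals; searched on both strands, chr5:24842312-24842611, minus strand, GRCm38.p6, RefSeq).
Rheb: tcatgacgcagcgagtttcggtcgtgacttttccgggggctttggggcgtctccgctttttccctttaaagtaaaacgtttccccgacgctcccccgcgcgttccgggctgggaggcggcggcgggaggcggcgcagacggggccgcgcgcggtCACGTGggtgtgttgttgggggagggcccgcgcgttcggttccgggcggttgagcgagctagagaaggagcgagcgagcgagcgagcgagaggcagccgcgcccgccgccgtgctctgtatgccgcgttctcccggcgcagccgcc

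The E-box began 96 bases before the start, and 7.15% of all promoter windows held one.

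Among the substrates, Rps6kb1, which encodes S6 kinase 1, measured 75.5 and 95.3 CPM in tetramer libraries 4 and 5, against 206 and 83.1 CPM in resting libraries 4 and 5. Resting library 4 alone was high, and the other libraries lay together. The log2 fold change of -0.76 (95% interval -1.58 to 0.07, edgeR adjusted p = 0.164) was 0.05 without resting library 4 (edgeR adjusted p = 0.950) and -1.24 without resting library 5 (edgeR adjusted p = 0.0245). With library totals in place of TMM factors it was called lower, at -1.08 (edgeR adjusted p = 0.0466). Rps6kb1 overlaps Rnft1 in the annotation, with the same limit as for Tsc2.

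Eif4ebp2, which encodes the translation repressor 4E-BP2, measured 91.1 and 59.5 CPM in tetramer libraries 4 and 5, against 183 and 123 CPM in resting libraries 4 and 5. Every tetramer library lay below every resting library. The mean was 75.3 ± 22.3 CPM in tetramer libraries and 153 ± 42.8 CPM in resting libraries (SD, n = 2 each), a log2 fold change of -1.02 ± 0.38 (SE, edgeR adjusted p = 0.0459). The direction held in 12 of 12 alternatives (log2 fold change -1.35 to -0.69), but the call was lost in 8, among them DESeq2 (adjusted p = 0.0566), the edgeR test against a fold of 1.5 (0.153), and the fits without resting library 4 (0.263), tetramer library 4 (0.116) or tetramer library 5 (0.358).

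Eif4ebp1, for the related repressor 4E-BP1, had 102 and 43 counts in tetramer libraries 4 and 5, against 49 and 49 counts in resting libraries 4 and 5. The resting pair was even, tetramer library 4 was high and tetramer library 5 was the lowest after scaling, at 8.70 CPM. The log2 fold change of 0.52 (95% interval -0.61 to 1.65, edgeR adjusted p = 0.513) was -0.23 without tetramer library 4 (edgeR adjusted p = 0.911). Within libraries the ratio of Eif4ebp1 to Eif4ebp2 reads was 0.229 and 0.146 in tetramer libraries 4 and 5, against 0.0554 and 0.0852 in resting libraries 4 and 5. Both tetramer libraries were higher, by 1.41 on the mean log2 scale (1.09 to 1.74 when single libraries were left out, exact permutation p = 0.333).

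The other genes of the pathway were read from lists of known members. Of 24 other brakes on mTORC1 (GATOR1, KICSTOR, AMPK and others) 0 rose and 1 fell by edgeR, with 0 higher and 2 lower by DESeq2, and 1 higher and 4 lower at an unadjusted p below 0.05. That 4.17% called by edgeR lies under the background of 26.4%, while the unadjusted counts have no all-gene share beside them. The median log2 fold change was -0.26. The gene that fell was Prkaa1, the catalytic α1 subunit of AMPK, at 13.9 and 15.4 CPM in tetramer libraries 4 and 5, against 42.9 and 30.3 CPM in resting libraries 4 and 5 (edgeR adjusted p = 0.0351). Its call was lost when resting library 4, tetramer library 4 or tetramer library 5 was left out (highest edgeR adjusted p = 0.270).

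Of 11 mTORC1 subunits and upstream kinases 0 rose and 1 fell (9.09% called, under the 26.4% of all genes tested). The gene that fell was Pdpk1, the kinase PDK1 that activates Akt and S6 kinase. It stood at 61.6 and 59.3 CPM in tetramer libraries 4 and 5, against 229 and 88.5 CPM in resting libraries 4 and 5 (log2 fold change -1.39, edgeR adjusted p = 0.0134), and at -0.54 without resting library 4, where its call was lost, as it was without either tetramer library. DESeq2 and limma-voom also called 0 higher and 1 lower, and at an unadjusted p below 0.05 there were 1 higher and 2 lower. Of 21 lysosomal activators 0 rose and 2 fell by edgeR (9.52% called, under the 26.4% of all genes tested). DESeq2 gave the same counts and limma-voom 0 of either, with 2 higher and 4 lower at an unadjusted p below 0.05. The unadjusted counts of both lists have no all-gene share beside them and are not read against the background. The 2 that fell by edgeR were Fnip2, a partner of folliculin, with a log2 fold change of -1.32, and Lamtor3, a Ragulator subunit, with -1.26 (edgeR adjusted p = 0.0303 and 0.0434). Fnip2 lost its call without resting library 5 or either tetramer library (log2 fold change -1.79 to -0.57), and Lamtor3 without resting library 4 or either tetramer library (-1.65 to -0.76).

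Of 25 other substrates and effectors of mTORC1 6 rose and 4 fell (40.0% called, beside 26.4% of all genes tested), with a median log2 fold change of -0.06. With tetramer library 4 left out fewer of them were called, as were fewer of all genes tested. Pdcd4, an inhibitor of the helicase eIF4A that S6 kinase marks for degradation, fell to 124 and 178 CPM in tetramer libraries 4 and 5, against 1145 and 565 CPM in resting libraries 4 and 5 (log2 fold change -2.50 ± 0.41, SE, edgeR adjusted p = 7.48e-05). Rb1cc1, the autophagy scaffold FIP200, fell by 1.70 on the log2 scale (edgeR adjusted p = 0.00306), a call lost without resting library 4 or tetramer library 4 (highest adjusted p = 0.0930). Cad, the pyrimidine synthesis enzyme that S6 kinase phosphorylates, rose by 2.43 ± 0.47 and Eif4a1, the helicase itself, by 1.97 ± 0.42 on the log2 scale (SE, edgeR adjusted p = 0.000444 and 0.00125). Neither was called without tetramer library 4, at 1.70 (edgeR adjusted p = 0.0763) and 1.10 (edgeR adjusted p = 0.162).

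Eif4e, the cap-binding factor that 4E-BPs sequester, was singled out after its values were seen. It measured 211 and 158 CPM in tetramer libraries 4 and 5, against 54.5 and 47.0 CPM in resting libraries 4 and 5. The groups lay far apart, with a log2 fold change of 1.86 ± 0.38 (SE, edgeR adjusted p = 0.000696) and 1.65 to 2.07 when single libraries were left out. Its scaffold partner Eif4g1, also chosen after seeing its value, rose by 1.02 (edgeR adjusted p = 0.0449), but lost the call without resting library 5, tetramer library 4 or tetramer library 5 (highest adjusted p = 0.263), with library totals, against a fold of 1.5 and with the column numbers as a block.

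**Figure D4:**
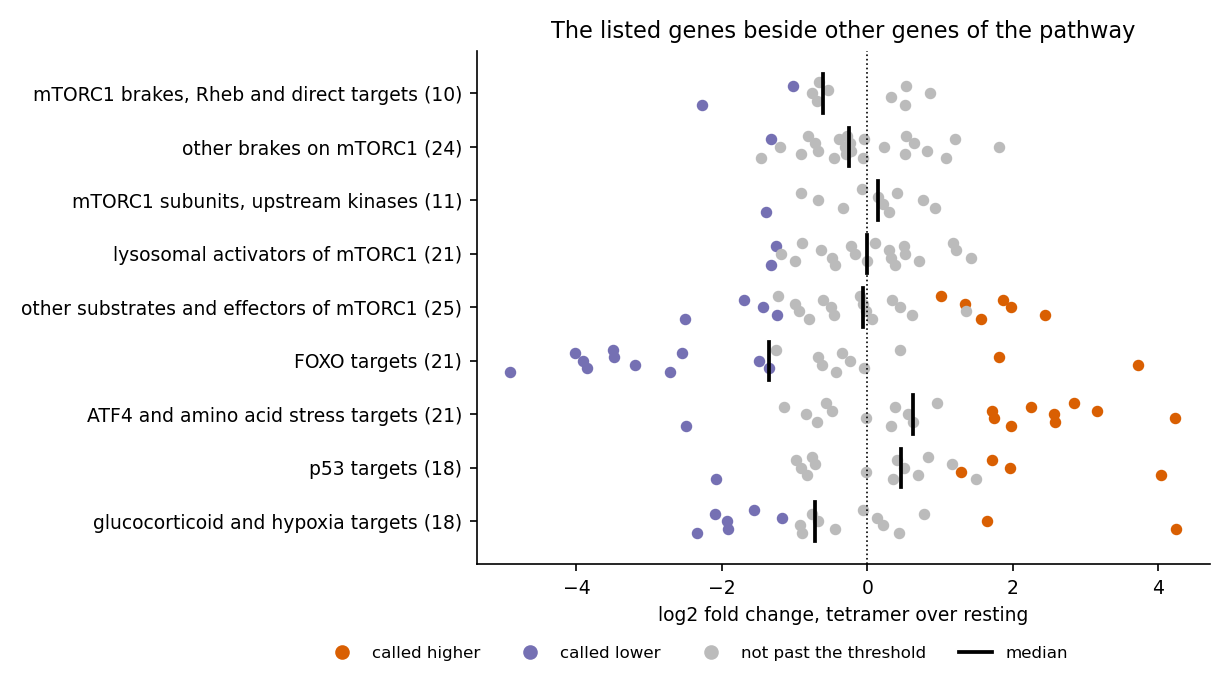
Log2 fold change (tetramer over resting) of the 10 genes and of 8 lists of related genes, with the number tested in parentheses, called genes in orange (higher) or purple (lower), others in grey, and a black bar at the median. Of the 10 genes in the top row 2 are called lower and 0 higher, and 26.4% of all genes tested are called.

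Lists of genes that share known regulators with the brakes were set beside them. Each list of targets also counts its regulators, namely Foxo1 and Foxo4, Atf4, Trp53, and Hif1a and Nr3c1. Of these regulators only Hif1a, which rose, and Nr3c1, the glucocorticoid receptor gene, which fell, were called. Of 21 FOXO targets 2 rose and 11 fell (61.9% called, beside 26.4% of all genes tested, median log2 fold change -1.35), a list drawn up with the fall of Pik3ip1 and Il7r in these libraries known. Pik3ip1, an inhibitor of PI3 kinase, had 5 and 20 counts in tetramer libraries 4 and 5, against 384 and 350 counts in resting libraries 4 and 5, a log2 fold change of -4.91. Il7r, the interleukin 7 receptor, fell by 4.02 on the log2 scale. The 2 genes that rose were Trib1, a pseudokinase, by 3.71 and the stress gene Gadd45b by 1.81 on the log2 scale. Sesn1 had a log2 fold change of -2.28 and Sesn3 of 0.86. The part of FOXO factors in these values was not tested, and a list drawn up in this way cannot test it.

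ATF4 targets, a class that is known to include Sesn2, Ddit4 and Eif4ebp1, rose in 9 cases and fell in 1 of 21 tested (47.6% called, beside 26.4% of all genes tested, median log2 fold change 0.63). Fewer of them were called without tetramer library 4, as were fewer of all genes tested. Psat1, a serine synthesis enzyme, stood at 196 and 133 CPM in tetramer libraries 4 and 5, against 12.0 and 5.56 CPM in resting libraries 4 and 5. The aminotransferase Gpt2 had 24 and 24 counts in tetramer libraries, against 2 and 3 counts in resting libraries, and lost its call without either tetramer library (highest edgeR adjusted p = 0.0995). The 1 that fell was Trib3, a pseudokinase of the ATF4 response, with 10 and 12 counts in tetramer libraries 4 and 5, against 20 and 100 counts in resting libraries 4 and 5. As for Sesn2 and Ddit4, resting library 5 was the high resting library, and the log2 fold change of Trib3 was -2.50 with it and -0.86 without it (edgeR adjusted p = 0.0121 and 0.388), while leaving out either tetramer library also ended the call.

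Of 18 p53 targets 4 rose and 1 fell (27.8% called, near the 26.4% of all genes tested, median 0.45 on the log2 scale). Fewer of them were called without tetramer library 5, as were fewer of all genes tested. Perp, a membrane protein of the p53 response, and the cell cycle inhibitor Cdkn1a rose by 4.04 and 1.96 on the log2 scale. Bbc3, the death protein PUMA, fell by 2.08 but was not called without resting library 5, tetramer library 4 or tetramer library 5 (-2.45 to -1.52, highest edgeR adjusted p = 0.169). Of 18 genes in the glucocorticoid and hypoxia list 2 rose, Hif1a among them, and 6 fell, Nr3c1 among them. That is 44.4% called, beside 26.4% of all genes tested, with a median log2 fold change of -0.72. Fewer than these 6 were called lower without tetramer library 4, tetramer library 5 or resting library 4. Of all genes tested, fewer were called lower without either tetramer library, but more without resting library 4. The oxygen sensor Egln3 rose by 4.25 and Hif1a by 1.64 on the log2 scale, with no call of Hif1a when resting library 5 was left out (edgeR adjusted p = 0.0535). Tsc22d3, the glucocorticoid-induced leucine zipper GILZ, fell by 2.34 on the log2 scale. The mitophagy receptor Bnip3l fell by 2.09. Tsc22d3 was not called without tetramer library 4 (edgeR adjusted p = 0.0887).

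By the Euclidean distance of log2 CPM centred on each gene's mean over the 4 libraries, the genes nearest to Sesn1 among 7893 others with a mean of at least 10 CPM were Sptssa, Akr1b10 and Gm12216. Their distances were 0.09, 0.10 and 0.15 on the log2 scale. Sptssa, a subunit of serine palmitoyltransferase, stood at 27.6 and 32.2 CPM in tetramer libraries 4 and 5, against 207 and 97.0 CPM in resting libraries 4 and 5. Over 4 libraries many patterns are alike, and this is a description of level only.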

How the data were processed

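The authors deposited whole-number counts of reads for each gene symbol. Bowtie2, DESeq2 and mm9 are named, with no versions, in the submitters' processing notes. The counting tool, strand use and treatment of shared reads are not stated in the sources. Per the labels' protocols, libraries were made from polyadenylated RNA with 23 PCR cycles. Columns were matched to groups by name. Their numbers, 4 and 5, are not the replicate numbers of the titles, and name the libraries. The table has no count below 1, so genes at 0 in a library are not analysed here, and 1 gene with a cell that is not a number was left out.

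Tests used edgeR 4.0.16 under R 4.3.3 (quasi-likelihood F test, default filter, TMM scaling, Benjamini-Hochberg adjustment over 11312 genes, threshold 0.05), after a test on simulated data. Standard errors were taken from the F statistic and intervals from its degrees of freedom. Alternatives used DESeq2 1.42.0, limma-voom 3.58.1, other scalings and filters, a test against a fold of 1.5, a block by column number, and each library left out. The chi-square between the 2 libraries of a group was 28.5 (tetramer) and 31.7 (resting) times its degrees of freedom, above counting error. Each library was treated as 1 sample. Separate mice are not stated, and p-values thus measure a spread that may be technical. The members and lists were chosen with earlier results of these data known. Named genes were all 10 members, in each list the 2 called genes with the largest change in each direction, or else the gene of smallest p, and the 3 genes nearest to the most changed called member in each direction.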

Additional observations from a re-analysis of the deposited data

How the results depend on the processing

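Of 119 single-gene values of the 10 genes under alternatives, 103 kept their direction and side of the threshold, 8 lost a call (all of Eif4ebp2), 3 gained one (Rps6kb1 with library totals and without resting library 5, Sesn2 without resting library 5) and 5 turned sign when a library was left out. Over such fits the log2 fold change ranged from -1.10 to 0.41 for Ddit4, from -0.23 to 1.02 for Eif4ebp1, from -1.24 to 0.053 for Rps6kb1 and from -0.45 to 2.21 for Sesn2, also -0.35 without tetramer library 4. The cause was not tested. Ddit4 gave no value under the filter at a mean of 10 CPM. The count of the 10 genes called lower was 1 instead of 2 with DESeq2, with its size factors in edgeR, against a fold of 1.5 and with no filter, and 1 to 3 when single libraries were left out, where 0 to 1 were called higher. The difference of library 4 from library 5 was nearly uncorrelated between the 2 groups (r = 0.05 across 11312 genes). That cannot show whether the column numbers mark pairs of libraries. With the numbers as a replicate block, 1 of the 10 genes was called lower and 1693 and 1468 genes were called higher and lower of all tested, against 1620 and 1366.

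With library totals the median log2 fold change was -0.35 over all genes and -0.89 over the 10 genes, in place of -0.06 and -0.61, and 1193 genes were higher and 2250 lower of all tested. Against a fold of 1.5, 785 genes were lower. Without single libraries 622 to 1629 genes were higher and 313 to 1488 lower, the low ends without tetramer library 4. With library totals, genes called lower were 4 lysosomal activators, 2 mTORC1 subunits and kinases, 3 other brakes, 7 effectors, 3 p53 targets and 2 ATF4 targets, and DESeq2 called 2 other brakes lower. With single libraries left out, genes called lower ranged from 0 to 2 for lysosomal activators, for mTORC1 subunits and kinases and for ATF4 targets, from 0 to 1 for other brakes and p53 targets, from 1 to 4 for effectors and from 2 to 5 for glucocorticoid and hypoxia targets. Those called higher ranged from 0 to 1 for lysosomal activators, mTORC1 subunits and kinases and other brakes, from 2 to 6 for effectors and from 2 to 4 for p53 targets. The FOXO match of Sesn1 lies after the start, so 0 windows held it in the part before the start.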
